A study of Mus musculus with 12 samples.

Results

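Resting gastrocnemius, a calf muscle, of mice labelled as over-expressing Myc was compared with resting gastrocnemius of mice labelled control, 3 animals against 3. The libraries are those labelled as uncontracted left legs of both genotypes, 6 of the 12 libraries of the study, and these 6 alone set the spread in the test. It was known when these legs were chosen that their Myc reads fit the labels. All animals were female C57BL/6J mice aged 11 weeks. The right leg of every animal had been contracted acutely, which gives the study 4 groups of 3 libraries. The resting muscle of both genotypes is therefore the opposite leg of an animal whose other leg had worked, and the effect of leg side cannot be told apart from that of contraction. The labels do not say how Myc was over-expressed, in which cells or for how long, or whether the control animals carried any part of the construct. Animals are numbered in the titles, and nothing else says that the libraries of a group are separate, so the p-values measure the spread between these libraries. RNA was read from the 3' ends of messenger RNAs, so that a count reflects tags per transcript and not transcript length.

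MYC is a transcription factor that pairs with its partner MAX and binds the DNA motif CACGTG, called an E-box. In growing cells it is known for raising genes of ribosome production, translation, nucleotide synthesis and mitochondrial protein supply. Adult muscle fibres do not divide, normally hold little MYC, and add mass chiefly by making more protein, for which they need ribosomes.

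The 6 libraries held 1371732 to 1635751 reads, and 5971 genes had enough of them to be tested. Levels are given in CPM, each gene's share of its library's reads on a common scale, after TMM scaling, and before that scaling 1 read was worth 0.611 to 0.729 CPM. Mitochondrial transcripts took 27.1 to 35.2% of the reads. The 8 muscle fibre markers summed to 110797 to 119501 CPM in the control and to 102748 to 103303 CPM in the Myc libraries, so that the groups did not overlap. Neutrophil markers summed to at most 3.09 CPM. Libraries of the same group differed by more than sampling noise (chi-square per degree of freedom of 2.95 to 6.75). This cannot show that they come from separate animals, and each was counted as a sample because of its title.

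Myc itself comes first. Its reads were known when the libraries were chosen, so its values are a description and have no test. The control libraries 1, 2 and 3 held 0, 1 and 0 Myc reads, and the Myc libraries 1, 2 and 3 held 11, 9 and 9. In CPM these were 0, 0.677 and 0 against 6.96, 5.67 and 6.98. The groups did not overlap. The 1 read of control 2 has a 95% exact Poisson interval of 0.0171 to 3.77 CPM. Pooled over libraries the ratio was 30.4 (exact interval 5.04 to 1240). The difference of the means was 6.31 CPM. These intervals cover counting error only, and the ratio has little meaning beyond its lower bound, because a single read in control 2 is its base. Without control 2 the lower bound was 5.28, and without control 1 or control 3 the ratio was 20.2 or 19.8. Myc had too few reads for edgeR's test. Myc messages with another 3' end, as a construct can have, would be missed, so that the reads are not a measure of total MYC.

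Genes that pass a threshold were few in this comparison. Of 5971 genes, 2 rose (0.0335%) and 0 fell at an adjusted p under 0.05 in edgeR's quasi-likelihood test with Benjamini-Hochberg adjustment. Unadjusted p was under 0.05 for 255 genes on the higher side and 197 on the lower side, which is 4.27% and 3.3% of those tested and 7.57% in all. DESeq2 passed 17 genes, 15 higher and 2 lower, of which 13 encoded cytosolic ribosomal proteins. Below, a gene is said to have risen only if it is one of these 2; all other genes are given as higher or lower in value and did not pass.

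The gene with the smallest p was Timm10 (ENSMUSG00000027076, chromosome 2, 84826997 to 84830213, plus strand, GRCm38), whose product is a small chaperone that escorts water-repelling proteins across the space between the mitochondrial membranes. It stood at 18.5, 21.6 and 18.5 CPM in the control libraries and at 48.1, 52.3 and 42.6 CPM in the Myc libraries. All 3 Myc values were well above all 3 control values. It rose 2.45-fold, a log2 change of 1.29 ± 0.19 (SE; edgeR adjusted p = 0.0156). Other genes of the same small chaperone family, named after their values were seen, were higher by less and did not pass. Timm9, whose product forms a complex with that of Timm10, had 17.2, 21.0 and 21.6 CPM against 26, 27.1 and 26.4, a log2 change of 0.41 ± 0.20. Timm13, Timm8b and Timm10b had log2 changes of 0.17, 0.17 and 0.15, with overlapping groups.

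Nme1 (ENSMUSG00000037601, chromosome 11, 93956979 to 93968521, minus strand) also rose. It encodes a nucleoside diphosphate kinase, which makes the triphosphates used for RNA and DNA synthesis and the GTP used in translation. Its level was 23.6, 23.7 and 27.2 CPM in control and 53.2, 54.2 and 53.5 CPM in Myc libraries, so that the Myc animals were nearly identical and apart from the controls. The log2 change was 1.11 ± 0.17, or 2.16-fold (edgeR adjusted p = 0.0156). Its neighbour and close relative Nme2 had 2, 1 and 4 reads against 1, 3 and 1, and reads that fit both genes could not be told apart in counting, which leaves each gene's own level uncertain. Both calls depend on single libraries: without control 1, control 3 or Myc 2 neither gene passed (edgeR adjusted p = 0.0555, 0.0586 and 0.167 for both), and without control 2 or Myc 3 Nme1 did not (0.0966 and 0.0734). With all 12 libraries setting the spread the edgeR adjusted p was 0.117 for both. Their log2 changes themselves moved little, from 1.21 to 1.37 for Timm10 and from 1.07 to 1.17 for Nme1 over 16 alternative settings.

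**Figure D1:**
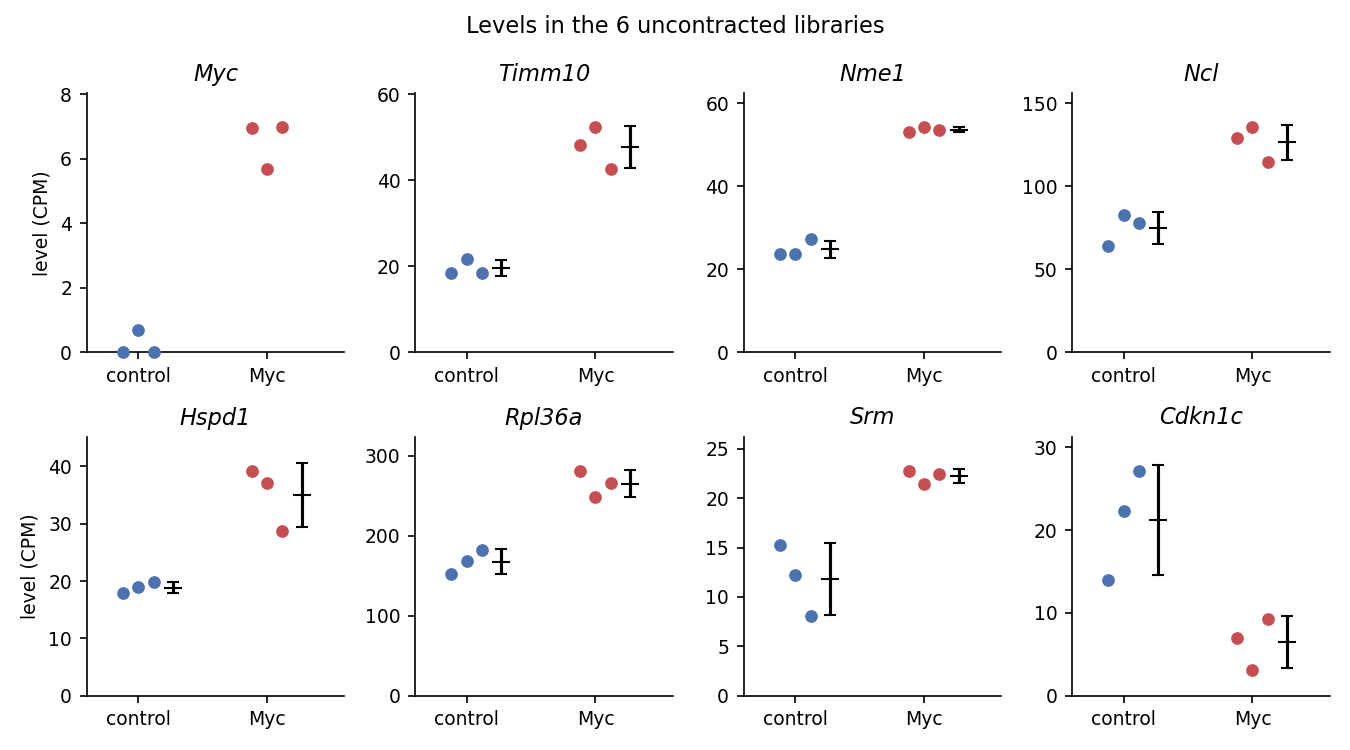
Levels in CPM of 8 genes in the 6 uncontracted libraries, with 1 point per library (control in blue, Myc in red, replicates 1 to 3 from left to right). Black bars give the mean ± SD of 3 libraries, and are left out for Myc, where control libraries held 0 or 1 read. Timm10 stood at 42.6 to 52.3 CPM in Myc libraries against 18.5 to 21.6 in controls, and Cdkn1c lay on the lower side.

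Because MYC is known to bind the E-box, the start regions of the members were searched for CACGTG, which reads the same on both strands. The windows are those of RefSeq on GRCm38.p6, 250 bases before to 50 after each gene's start, and the sequences are shown for both genes that rose and for 1 gene each of the ribosome, of protein folding in mitochondria and of translation elongation. The latter genes were picked among those higher in value that hold the motif. It also stands in the windows of genes lower in value, such as Nfx1, Dusp1 and Met. Each is written 5' to 3' on the gene's strand, with the motif in capitals.
Timm10, chr2:84827037-84827066, plus strand: ccggaagtgaccCACGTGcttcttatttcg
Nme1, chr11:93968273-93968317, minus strand: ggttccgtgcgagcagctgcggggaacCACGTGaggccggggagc
Nme1, second start, chr11:93968026-93968081, minus strand: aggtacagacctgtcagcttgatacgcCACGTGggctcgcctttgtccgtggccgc
Rps19, chr7:24884766-24884825, plus strand: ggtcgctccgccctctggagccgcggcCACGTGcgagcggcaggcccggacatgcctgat
Hspd1, chr1:55088291-55088350, minus strand: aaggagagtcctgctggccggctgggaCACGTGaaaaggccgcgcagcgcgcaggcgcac
Eef2, chr10:81176561-81176620, plus strand: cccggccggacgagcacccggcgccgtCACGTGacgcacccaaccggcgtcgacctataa

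Counted from the RefSeq starts, which for Timm10 and Nme1 are not the gene ends given above from another annotation, the motif begins 29 bases past the start of Timm10, 18 and 29 bases before the starts of Nme1, 120 before that of Rps19, 80 before that of Hspd1 and 43 before that of Eef2. Such a match is a description of the letters and says nothing about binding. The motif stands in 7.15% of all 32851 windows, and in 12.7% of the 4740 tested genes with a window. The share was 25% (12 of 48) among tested genes of rRNA processing, 22.7% (5 of 22) among those of nucleotide and polyamine synthesis and 20.7% (6 of 29) among those of mitochondrial import. It was 10.2% (6 of 59) among cytosolic ribosomal protein genes, below that of the tested genes, and 0 of 13 fast fibre genes and 0 of 18 matrix genes had it. Of the 365 genes with a window whose groups did not overlap on the higher side 11.2% held it, and of the 271 on the lower side 9.23%.

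The most uniform difference lay in the cytosolic ribosomal proteins, the protein parts of the ribosomes that translate nuclear messages. Of 87 genes in the list 80 were tested, 0 passed, and 78 had a log2 change above 0, against 49.4% of all genes tested. Groups did not overlap on the higher side for 53 of the 80 (66.25%), against 7.49% of all genes tested, and on the lower side for 0 (5.71% of all). The median log2 change was 0.38, against -0.0049 for all genes, of which the middle 50% lay between -0.19 and 0.18. The summed level of all 87 listed genes was 16971, 16696 and 16885 CPM in the control libraries and 21824, 21697 and 21692 CPM in the Myc libraries. The 3 values in each group lay close together, and every Myc library was above every control. Sums here and below are over all genes of a list, tested or not.

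Values were alike in both subunits: the median was 0.37 over 32 genes of the small subunit, with 20 not overlapping, and 0.39 over 48 genes of the large subunit, with 33 not overlapping. In the large subunit Rpl36a had 152, 168 and 182 CPM in control and 281, 248 and 266 CPM in Myc libraries. Its groups were far apart, at a log2 change of 0.66 ± 0.12 (edgeR adjusted p = 0.0622). In the small subunit Rps19, which is needed to mature the small subunit's RNA, had 184, 191 and 175 against 292, 262 and 274 CPM. That is a log2 change of 0.59 ± 0.11 (edgeR adjusted p = 0.0625), again without overlap. The more abundant Rpl13 had 1260, 1067 and 1004 CPM against 1534, 1651 and 1645, also without overlap (0.54 ± 0.11). Rpl37, Rpl11, Rpsa, Rpl32, Rpl12, Rpl18 and Rps26 were higher without overlap at log2 changes of 0.46 to 0.65, with edgeR adjusted p of 0.0625 to 0.0942. Rpl11 encodes a large subunit protein that, when not built into ribosomes, also binds the p53 regulator MDM2.

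Rpl3l, named after its value was seen, did not separate the groups. It encodes the form of ribosomal protein L3 that is made in striated muscle in place of the general form. It had 410, 403 and 383 CPM in control and 386, 405 and 371 CPM in Myc libraries, so that the groups overlapped (-0.04 ± 0.10). The general form Rpl3 had 23.6, 26.4 and 27.2 against 41.2, 43.5 and 27.1 CPM, where Myc 1 and 2 were above all controls and Myc 3 was among them (0.55 ± 0.21). The difference between the changes of these 2 genes was not tested, and Rpl3 overlaps Syngr1, which has more reads, on the opposite strand. Rpl39, also named after its value was seen, showed the largest log2 change of the list, with 15.9, 34.5 and 25.9 against 48.7, 35.9 and 49.6 CPM (0.81 ± 0.23). Of the 7 genes not tested Rps6 had 0 reads in all 6 libraries. Ribosomal protein genes have many processed copies in the genome, and how reads that fit several places were counted is not given, so the level of single members is uncertain.

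**Figure D2:**
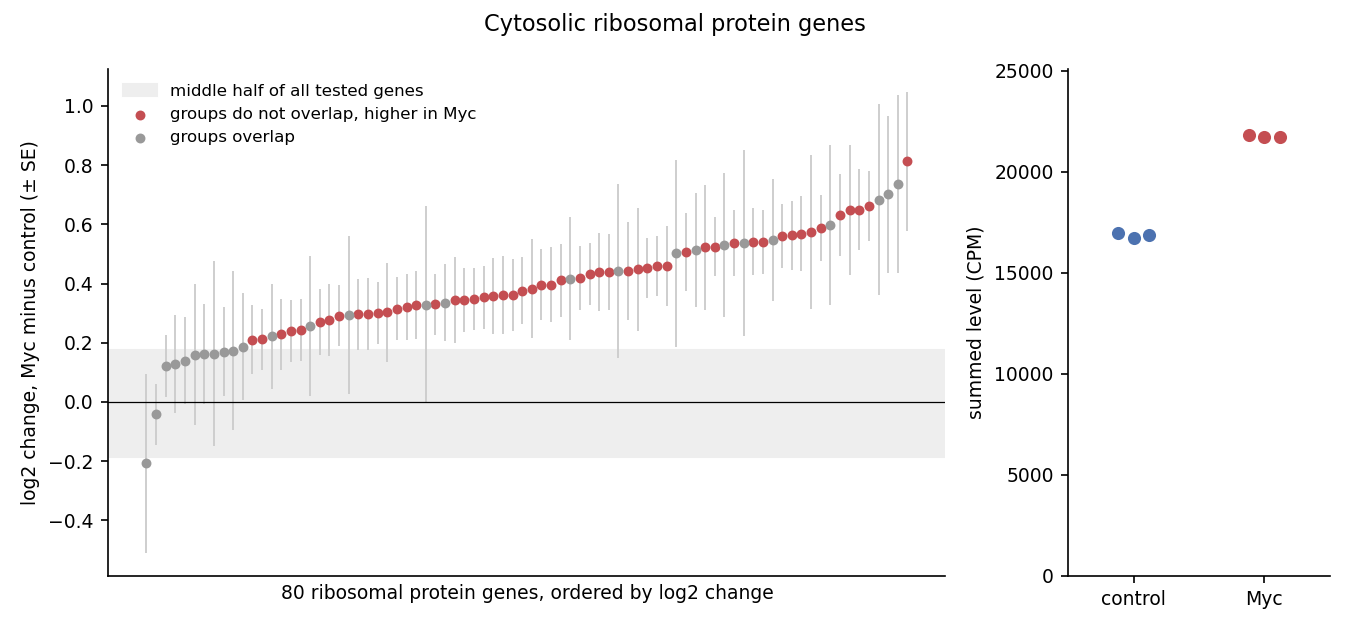
Left, log2 change (Myc minus control, ± SE) of the 80 tested cytosolic ribosomal protein genes in rising order, in red where the groups do not overlap and in grey where they do, with the middle 50% of all tested genes as a grey band. Right, the summed level of all 87 listed genes in each library (CPM): 16696 to 16971 in controls and 21692 to 21824 in Myc libraries.

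Ribosomes are assembled in the nucleolus, and the genes for that work were also mostly higher. The list of rRNA processing and nucleolar assembly holds 87 genes, of which 57 were tested, 0 passed and 50 had a log2 change above 0. Groups did not overlap on the higher side for 18 (31.6%, against 7.49% of all genes) and on the lower side for 2 (3.51%, against 5.71%). The median was 0.28, and the sum was 1214, 1187 and 1223 CPM in control and 1626, 1576 and 1515 CPM in Myc libraries, without overlap. Of the 57, 4 had a mean above the count filter in the Myc libraries only and 1 in the controls only.

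Ncl encodes nucleolin, an abundant nucleolar protein that binds young rRNA. It had 63.7, 82.5 and 77.8 CPM in control and 129, 136 and 115 CPM in Myc libraries. The lowest Myc library was above the highest control, at a log2 change of 0.76 ± 0.14 (edgeR adjusted p = 0.0625). Gnl3, which encodes the nucleolar GTPase nucleostemin, had 10.2, 15.6 and 11.7 against 19.0, 34.7 and 24.8 CPM (1.07 ± 0.27). Nhp2, a core protein of the particles that guide pseudouridylation of rRNA, had 35.7, 33.2 and 39.5 against 51.3, 54.2 and 70.6 CPM (0.69 ± 0.17). Rrp12 (0.59 ± 0.15), Pwp2 (1.0 ± 0.30) and Nop16 (0.79 ± 0.24), all needed to build ribosomal subunits, were higher without overlap too. On the other side Tbl3 (-0.69 ± 0.34) and Krr1 (-0.35 ± 0.35), named after their values were seen, were the 2 whose groups did not overlap.

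RNA polymerase I copies the rRNA genes. Of its 20 listed subunits and factors 12 were tested, 0 passed and 11 had a log2 change above 0, against 49.4% of all genes tested. Of the 12, 1 had a mean above the count filter in the Myc libraries only. Groups did not overlap on the lower side for 0 of the 12, against 5.71% of all genes, and on the higher side for 3, against 7.49%. These 3 were Polr1a, the catalytic subunit (18.5, 15.6 and 17.3 against 24.1, 20.8 and 22.5 CPM), Polr1d (0.37 ± 0.24) and Polr2e (0.47 ± 0.17), a subunit shared with the other nuclear polymerases. Rrn3, which recruits the polymerase to rRNA genes, had overlapping groups (0.11 ± 0.16). The list's median was 0.13, and 0.27 or 0.22 without control 1 or Myc 2.

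Nucleotides and polyamines are the small molecules that growing cells need for RNA. Of 41 genes 25 were tested, 1 passed, Nme1, and 19 had a log2 change above 0, against 49.4% of all genes tested. Groups did not overlap on the higher side for 7 of the 25, against 7.49% of all genes, and on the lower side for 1, against 5.71%. Of the 25, 3 had a mean above the count filter in the Myc libraries only and 1 in the controls only. Srm, which encodes spermidine synthase, had 15.3, 12.2 and 8.03 CPM in control and 22.8, 21.4 and 22.5 CPM in Myc libraries, without overlap (0.91 ± 0.26). Shmt2, the mitochondrial enzyme that feeds 1-carbon units from serine, had 10.2, 10.1 and 9.26 against 20.3, 18.9 and 14.7 CPM (0.87 ± 0.26). Impdh1, which controls guanine nucleotide supply, was higher by 1.18 ± 0.37 from few reads, and Dhodh of pyrimidine synthesis by 0.66 ± 0.33. The polyamine genes did not share a direction: Amd1 was lower without overlap (32.5, 38.6 and 37.7 against 30.4, 25.8 and 27.9 CPM, -0.37 ± 0.18). Odc1, the textbook MYC target that encodes the rate-limiting enzyme of polyamine synthesis, had 9.56, 4.74 and 2.47 against 3.80, 6.30 and 8.53 CPM and did not separate the groups (0.12 ± 0.48); it is named after its value was seen.

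Differences were smaller among translation factors. Of 45 tested translation factor genes 30 had a log2 change above 0 and 0 passed, with 6 (13.3%, against 7.49% of all genes) not overlapping on the higher and 1 (2.22%, against 5.71%) on the lower side. Of the 45, 2 had a mean above the count filter in the Myc libraries only. The median was 0.09, within the middle 50% of all genes, and it was 0.05, 0.13 or 0.16 without Myc 2, Myc 3 or control 3. By p, elongation factor genes came first. Eef1b2 had 118, 125 and 148 CPM in control and 182, 182 and 200 CPM in Myc libraries (0.53 ± 0.13), and Eef2, which moves the ribosome along the message, had 948, 827 and 890 against 1250, 1145 and 1163 CPM (0.42 ± 0.10). Neither pair of groups overlapped, and edgeR adjusted p was 0.137 and 0.172. Eif5a was higher by 0.36 ± 0.15. Among 20 aminoacyl-tRNA synthetases, which charge tRNAs with amino acids, 16 had a log2 change above 0 and 0 passed. Groups did not overlap on the higher side for 4 of the 20, against 7.49% of all genes, and on the lower side for 0, against 5.71%. The smallest p was that of the isoleucine enzyme gene Iars (15.3, 14.9 and 14.2 against 24.7, 21.4 and 26.4 CPM, 0.70 ± 0.22). The sum over the synthetases overlapped, at 790 to 912 CPM in control and 878 to 981 CPM in Myc libraries.

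Most mitochondrial proteins are made outside the organelle and must be imported and folded, the work of the list that holds Timm10. Of 38 genes 32 were tested, 1 passed and 26 had a log2 change above 0. Groups did not overlap on the higher side for 10 (31.25%, against 7.49% of all genes) and on the lower side for 0 (5.71% of all). The median was 0.20, and the sum was 1105, 1122 and 1106 CPM in control and 1354, 1381 and 1357 CPM in Myc libraries, without overlap. Hspd1, the mitochondrial chaperonin HSP60, had 17.8, 18.9 and 19.8 against 39.3, 37.2 and 28.7 CPM, where even the lowest Myc library lay clear of the controls (0.90 ± 0.20, edgeR adjusted p = 0.101). Its partner Hspe1, which caps the chaperonin, had 41.4, 44.7 and 47.5 against 69.0, 70.0 and 50.4 CPM (0.51 ± 0.17). Both genes lie head to head and overlap, and how their reads were shared out is uncertain. C1qbp (0.74 ± 0.19), a matrix protein that supports mitochondrial translation, the prohibitin gene Phb (0.63 ± 0.17), Timm44 (0.56 ± 0.17), which ties the import motor to the channel, and Hspa9 (0.45 ± 0.13), that motor's chaperone, were higher without overlap.

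The mitochondrion's own ribosome and respiratory chain showed smaller differences. Of 75 tested mitochondrial ribosomal protein genes 61 had a log2 change above 0 and 0 passed, with a median of 0.17. Groups did not overlap on the higher side for 16 (21.3%, against 7.49% of all genes) and on the lower side for 1 (1.33%, against 5.71%). Of the 75, 3 had a mean above the count filter in the Myc libraries only and 1 in the controls only. Mrpl12 had 120, 118 and 110 CPM in control and 165, 176 and 151 CPM in Myc libraries (0.50 ± 0.12), and Mrps30 had 18.5, 18.3 and 19.1 against 33.6, 26.5 and 42.6 CPM (0.86 ± 0.22). Of 78 tested nuclear genes for oxidative phosphorylation subunits 69 had a log2 change above 0 and 0 passed. Groups did not overlap on the higher side for 19 (24.4%, against 7.49% of all genes), but the median was 0.13. The highest in this list by p were Cox5b (0.35 ± 0.12) of complex IV and Uqcrfs1 (0.36 ± 0.13) of complex III. Transcripts of the mitochondrial genome had no common direction: of 9 tested 4 were above and 5 below 0, with mt-Rnr1 and mt-Rnr2, its rRNAs, at -0.30 ± 0.11 and -0.39 ± 0.16 with overlapping groups and mt-Nd1 at 0.18 ± 0.11.

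Of 35 tested heat shock and chaperone genes 25 had a log2 change above 0, with a median of 0.12 (0.21 without control 3). Groups did not overlap on the higher side for 9 (25.7%, against 7.49% of all genes), Hspd1 and Hspe1 among them. Cryab, a small heat shock protein of muscle, had 347, 458 and 370 against 492, 582 and 473 CPM (0.40 ± 0.13). Proteasome subunits were even, with 19 of 39 above 0 and a median of -0.03.

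**Figure D3:**
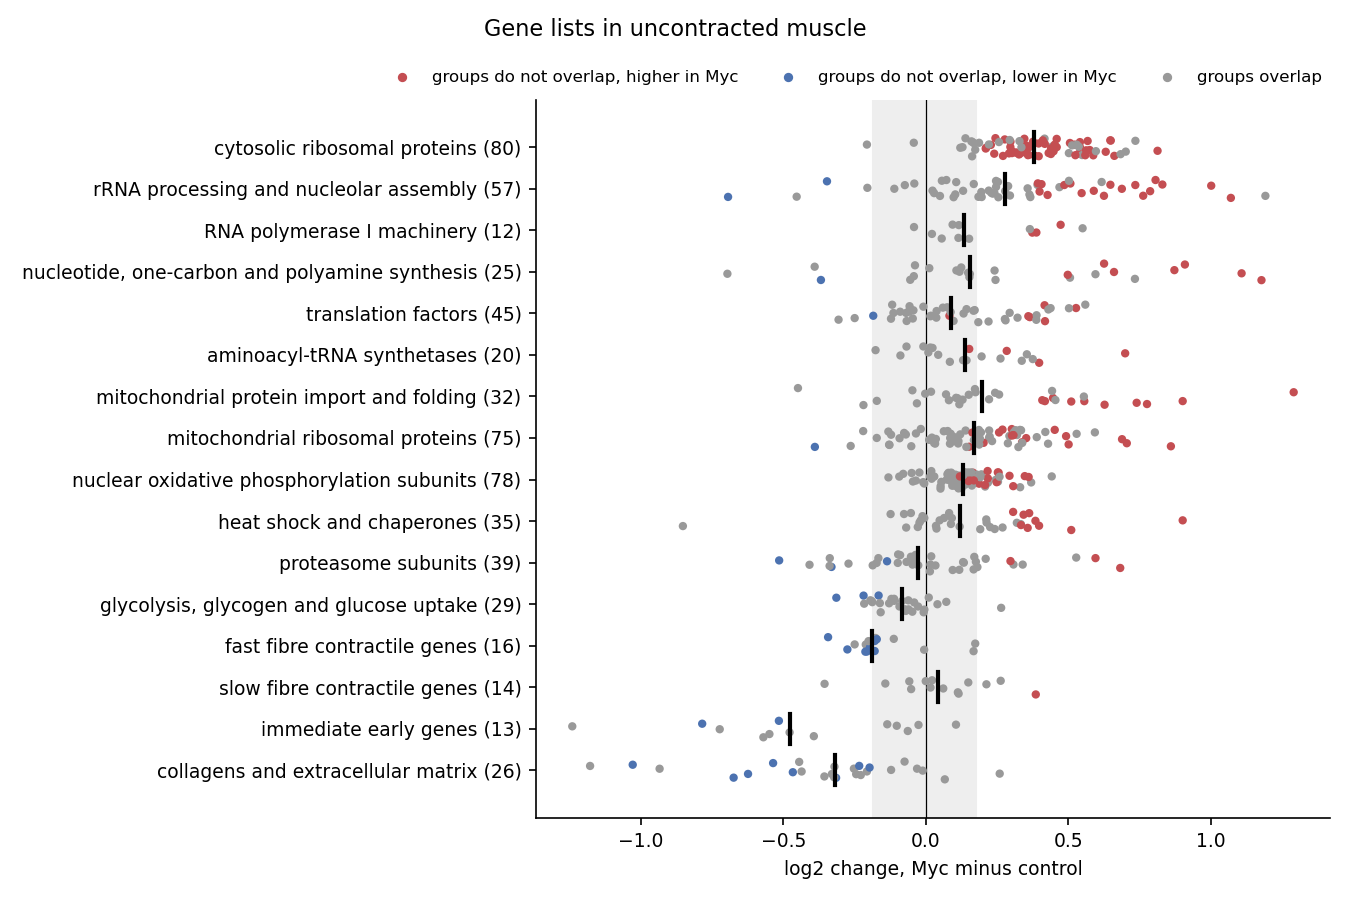
Log2 change (Myc minus control) of every tested member of 16 gene lists, 1 point per gene, with the number tested in brackets and the list's median as a black bar. Red points are genes whose groups do not overlap on the higher side and blue points on the lower side; grey is the middle 50% of all 5971 genes. The median is 0.38 for cytosolic ribosomal proteins, 0.28 for rRNA processing, -0.19 for fast fibre genes and -0.32 for collagens and matrix.

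On the lower side stood the contractile genes of fast fibres, the main fibre type of the mouse gastrocnemius. All 16 listed genes were tested, 0 passed, and 14 had a log2 change below 0, against 50.6% of all genes tested. Groups did not overlap on the lower side for 8 (50.0%, against 5.71% of all genes), and the median was -0.19. Tpm1, a tropomyosin, had 25579, 24199 and 22740 CPM in control and 19464, 18012 and 19698 CPM in Myc libraries, all 3 below the controls (-0.34 ± 0.11). Actn3, the fast fibre alpha-actinin, had 5157, 4533 and 4368 against 3889, 3720 and 4007 CPM (-0.28 ± 0.11), and Myh4, the fastest myosin heavy chain, 20933, 21828 and 22576 against 20201, 18319 and 18108 CPM (-0.21 ± 0.11). The heavy chains of the slower fast fibres, Myh2 and Myh1, were the 2 members above 0, both at 0.17 with overlapping groups. Summed, the 16 genes took 228340, 220361 and 205816 CPM in control and 191193, 186736 and 189619 CPM in Myc libraries. The Myc libraries were all below the controls. Of the 8 muscle fibre markers, most of them in this list too, 5 (62.5%, against 5.71% of all genes) did not overlap on the lower side. All levels here are relative to a library's total, and the median log2 change of all genes lay between -0.013 and 0.029 under the 16 alternative settings.

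Genes of slow fibres had no common direction: of 14 tested 9 were above 0 and 5 below, and the median was 0.04. Groups did not overlap on the higher side for 1 (7.14%, against 7.49% of all genes), Myoz2 (0.39 ± 0.19). Of the 14, 1 had a mean above the count filter in the Myc libraries only. Myh7, the slow myosin heavy chain, had 236, 244 and 221 CPM in control and 194, 267 and 271 CPM in Myc libraries, with overlapping groups. Genes of glycolysis and glucose uptake were slightly lower, with 25 of 29 tested below 0 and a median of -0.08, inside the middle 50% of all genes. Groups did not overlap on the lower side for 3 (10.3%, against 5.71% of all genes). Of the 29, 1 had a mean above the count filter in the controls only. Pfkm, the muscle form of phosphofructokinase, had 948, 912 and 845 against 766, 716 and 844 CPM (-0.22 ± 0.11).

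Genes of collagens and extracellular matrix were the other group on the lower side. Of 31 genes 26 were tested, 0 passed and 24 had a log2 change below 0, with a median of -0.32 (-0.20 without control 3). Groups did not overlap on the lower side for 8 (30.8%, against 5.71% of all genes). Of the 26, 1 had a mean above the count filter in the controls only. Col1a1, a chain of type I collagen, had 509, 1103 and 708 CPM in control and 336, 333 and 471 CPM in Myc libraries (-1.03 ± 0.21, edgeR adjusted p = 0.0748). The groups did not overlap, but the controls were spread, with control 2 well above control 1. Sparc, a collagen-binding matrix protein, had 1243, 1189 and 1557 against 1039, 787 and 762 CPM (-0.62 ± 0.13). Col3a1 (-0.67 ± 0.19) and Timp2 (-0.54 ± 0.15), an inhibitor of matrix proteases, were lower without overlap. The sum over the list was 3326, 3950 and 4240 CPM in control and 2824, 2474 and 2570 CPM in Myc libraries.

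Markers of several cell types other than fibres were lower too. The fibroblast markers are not separate from the matrix list, since collagen genes such as Col1a1 and Col3a1 are counted in both. The tendon and matrix lists share their highest log2 change, 0.26, and so are not separate either. In bulk muscle, fewer cells of a type and less RNA per cell cannot be told apart. Of 7 fibroblast markers 6 were tested, 5 of them below 0, and the list's sum was 918, 1556 and 1321 CPM in control and 722, 631 and 771 CPM in Myc libraries. The fibroblast receptor gene Pdgfra had 2 to 8 reads a library and was not tested. Of 7 macrophage markers 4 were tested, all below 0, and the list's sum was 139, 152 and 194 against 109, 118 and 126 CPM. The macrophage growth factor receptor gene Csf1r had 59.3, 54.1 and 67.9 against 32.3, 38.5 and 40.3 CPM (-0.71 ± 0.17), while Cd68 and Adgre1 had 1 to 9 reads a library. Endothelial markers did not separate the groups, with sums of 228 to 249 CPM in control and 221 to 260 CPM in Myc libraries and a median of -0.03 over 8 genes. Of the other markers Schwann cell genes were all 4 below 0 (sums of 89.9 to 130 against 71.9 to 99.2 CPM), smooth muscle genes all 5 below 0 (228 to 274 against 213 to 229 CPM), and adipocyte genes 4 of 5 (7254 to 8862 against 7300 to 9130 CPM, median -0.03). Without control 3 the median went from -0.56 to -0.32 for fibroblast, from -0.54 to -0.30 for macrophage and from -0.36 to -0.14 for Schwann cell genes. Smooth muscle genes were then 3 below and 2 above 0, and Schwann cell genes 3 below and 1 above. Fibroblast and macrophage genes kept their 5 and 4 below 0. Erythrocyte genes were 2 above and 2 below 0, and tendon genes 4 of 5 below (348 to 403 against 305 to 335 CPM). Of the 5 lymphocyte markers the T cell gene Cd3e and the B cell genes Cd79a and Ms4a1 had 0 reads in all 6 libraries and Cd3g had 1 read in all. The immunoglobulin heavy chain gene Ighm had 16, 15 and 14 reads in control and 4, 7 and 8 in Myc libraries, lower without overlap (-1.16 ± 0.39, edgeR adjusted p = 0.395). The mean of Ighm was above the count filter in the controls only. The part of these cells in the lower matrix values or in the higher ribosomal protein values was not tested.

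**Figure D4:**
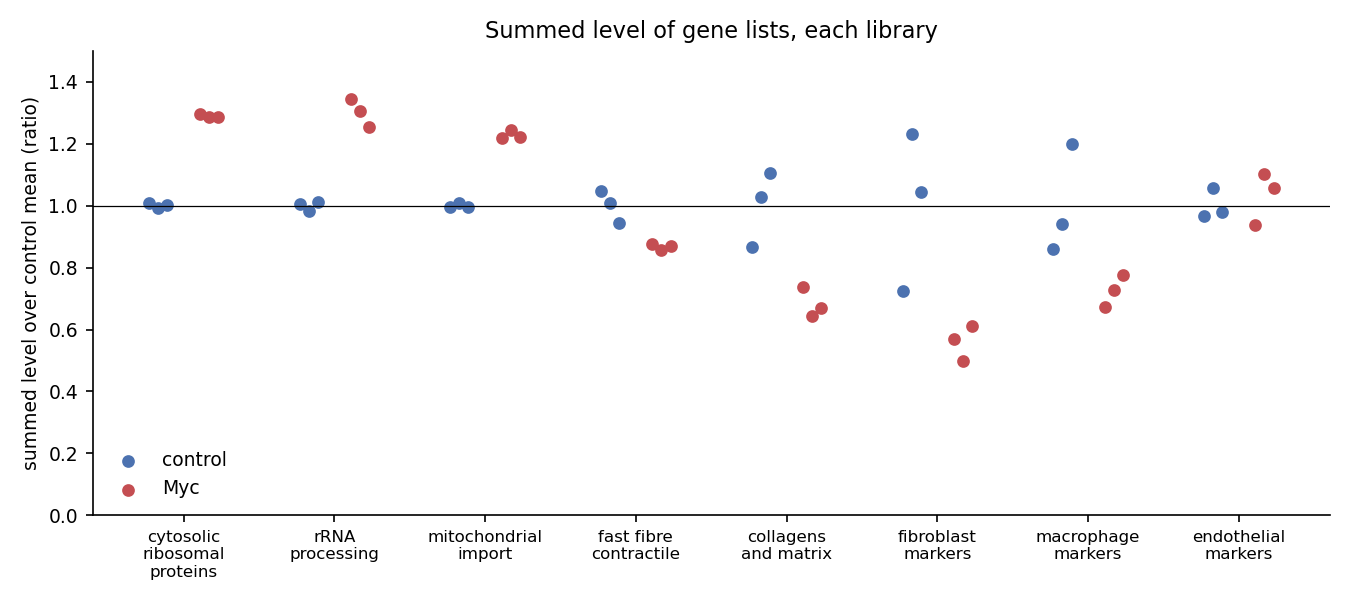
Summed level of 8 gene lists in each library, as a ratio to the mean of the 3 control libraries (control in blue, Myc in red, replicates 1 to 3 from left to right). Ribosomal protein, rRNA processing and import sums lie above all controls in every Myc library, fast fibre, matrix, fibroblast and macrophage sums below all controls, and endothelial sums overlap. The matrix and fibroblast lists share collagen genes, Col1a1 among them.

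Immediate early genes and genes of myogenic and growth control were mostly lower. Of 30 immediate early genes, which respond within minutes to stimuli, 13 were tested, 12 of them below 0 (50.6% of all genes were), with 2 (15.4%, against 5.71% of all genes) not overlapping on the lower side. The median was -0.48, and -0.16 without Myc 2. Jund, an AP-1 factor, had 152, 132 and 115 CPM in control and 95.6, 91.4 and 91.5 CPM in Myc libraries (-0.52 ± 0.14), and Dusp1, a phosphatase that switches off MAP kinases, 18.5, 29.1 and 17.9 against 15.8, 9.46 and 12.4 CPM (-0.78 ± 0.28). Of the 13, 3 had a mean above the count filter in the controls only. Among 14 tested myogenic and growth control genes 12 were below 0 and 4 (28.6%, against 5.71% of all genes) did not overlap on the lower side. Of the 14, 2 had a mean above the count filter in the controls only, Cish among them. Cish, a brake on growth hormone and cytokine signals, had 10.2, 8.12 and 6.79 against 2.53, 1.26 and 3.10 CPM (-1.86 ± 0.46), and Igfbp5, which binds insulin-like growth factors, had 81.6, 65.6 and 94.5 against 57.0, 52.3 and 61.3 CPM (-0.51 ± 0.16). Gdf11 and Met also did not overlap, at -0.41 ± 0.37 and -0.54 ± 0.34.

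Cdkn1c, which encodes the cell cycle inhibitor p57, had 14, 22.3 and 27.2 CPM in control and 6.96, 3.15 and 9.30 CPM in Myc libraries. Every Myc library was below every control, at a log2 change of -1.74 ± 0.36 (edgeR adjusted p = 0.0748). Meg3, a long noncoding RNA that like Cdkn1c is expressed from the maternal copy only, had 167, 110 and 134 against 103, 82.6 and 98.5 CPM (-0.54 ± 0.16). Of 9 tested cell cycle genes 4 were below 0 and the median was 0.01. The mitochondrial tRNA gene mt-Tp had 342, 329 and 252 against 194, 217 and 169 CPM (-0.67 ± 0.14); it lies among other mitochondrial genes, and without a stated strand setting the source of its reads is uncertain. Completing the 15 lowest by p were Vwa7 (-1.48 ± 0.38), Nfx1 (-1.0 ± 0.28), the plasminogen-binding tetranectin gene Clec3b (-0.80 ± 0.23), the antigen presentation gene H2-Ab1 (-0.88 ± 0.26) and the translation repressor gene Gigyf1 (-0.70 ± 0.21). Vwa7 had a mean above the count filter in the controls only. On the higher side the only 1 of the 15 outside the lists was Gsto1, a glutathione transferase, with 22.3, 19.6 and 22.8 against 38.0, 35.3 and 52.7 CPM (0.94 ± 0.21).

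No tested partner or rival of MYC separated the groups by itself. Of the 14 genes of the MYC and MAX network 8 were tested, 0 passed, 7 had a log2 change above 0 (49.4% of all genes had) and 0 had groups that did not overlap. The list's median was 0.13, and 0.23 or 0.08 without Myc 1 or Myc 2. Its sum was 173, 198 and 180 CPM in control and 201, 199 and 203 CPM in Myc libraries. That sum includes Myc itself, at 0, 0.677 and 0 against 6.96, 5.67 and 6.98 CPM, whose reads were known when the legs were chosen. The order of the sums therefore says nothing about the rest of the list. Max, the partner MYC needs to bind DNA, had 6.37, 14.9 and 6.79 CPM in control and 5.70, 11.3 and 11.6 CPM in Myc libraries. Mnt, a repressor that competes for MAX, had a log2 change of 0.29 ± 0.36 and Zbtb17, through which MYC represses genes and the only 1 of the 8 below 0, of -0.41 ± 0.32. The related genes Mycn and Mycl had 0 to 2 reads a library.

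Several genes above share a place in the genome with a gene on the opposite strand that has reads of its own. Gnl3 overlaps Pbrm1, Eef1b2 overlaps Ndufs1, Rpl32 overlaps Cand2, Shmt2 overlaps Ndufa4l2 and Dusp1 overlaps Ergic1. Zbtb17 overlaps Spen, which has more reads, Rpl18 overlaps Sphk2, Myh1 overlaps Myhas and Timm10b overlaps Arfip2. Without a stated strand setting these reads cannot be told apart. Timm10 overlapped no gene that had a read.

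The contracted legs of the same animals were not used in the comparison, since Myc reads go against the labels there in animals 2 and 3 of each genotype. Their values are given as a description. Among contracted libraries, Myc had 1, 10 and 59 reads in those labelled control (animals 1 to 3) and 32, 0 and 2 in those labelled Myc. Timm10 stood at 25.5, 44.0 and 44.6 CPM in the former and at 39.1, 23.3 and 25 CPM in the latter. The ribosomal protein sum was 17219, 19431 and 20479 CPM and 22986, 16498 and 17131 CPM in the same order. The difference of the Myc label's effect between uncontracted and contracted legs passed for 0 of 6676 genes tested over 12 libraries by edgeR (331 at an unadjusted p under 0.05). For Timm10 it was 1.69 ± 0.33 on the log2 scale (edgeR adjusted p = 0.275). Since Myc reads go against the labels in animals 2 and 3, this cannot show whether a Myc effect differs between the legs.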

How the data were processed

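The authors deposited 1 table of read counts per gene, whole numbers that were not normalized; per the submitters' processing notes FastQC 0.11.5, STAR 2.5.2a, SAMtools, HTSeq 0.6.0 and genome build mm10 were used. The annotation release, strand setting, trimming and handling of reads that fit several places are not given in the sources used here. Of 47643 identifiers 47224 were paired with a symbol, and 31522 had no read in the 6 libraries. Genes were filtered (filterByExpr, minimum count 10), scaled by TMM and tested 2-sided with edgeR 4.0.16 in R 4.3.3 (quasi-likelihood F test, group only, the 6 libraries, Benjamini-Hochberg over 5971 genes, threshold 0.05). An SE is the log2 change divided by the square root of F. Groups "do not overlap" where all 3 CPM values of 1 lie above all 3 of the other. The common coefficient of variation between libraries was 0.121, and a library with 0 reads of a gene allows up to 3 reads, or 1.83 to 2.19 CPM.

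Named genes are Myc, on each side the 15 genes of smallest p among those not overlapping and at 5 CPM or more on average (genes that passed first), and up to 6 per list by p, with every member of the MYC network, fibre type and myogenic lists open to naming; others are said to be named after their values were seen. Members and lists were chosen with earlier results of these data known, so a list is described by counts and medians and not tested. Gene places come from GENCODE M21, and 300-base start windows from RefSeq on GRCm38.p6. Alternatives were RLE size factors, library totals, DESeq2 1.42.0, robust dispersions, other filters, no mitochondrial genes, all 12 libraries, a replicate block and each library left out; a newer quasi-likelihood method was added after seeing the data. The steps were tested on simulated data.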

Additional observations from a re-analysis of the deposited data

How the results depend on the processing

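The count of 2 genes that passed was also 2 with RLE size factors, library totals alone, mitochondrially encoded genes left out, a stricter filter of 20 reads in 3 libraries and the newer quasi-likelihood method, and each time Timm10 and Nme1 were both kept. It was 17 with DESeq2, which gave Timm10 and Nme1 no adjusted p, 20 with robust dispersions (17 higher, 3 lower) and 40 with no low-count filter (28 higher, 12 lower), with 13, 13 and 12 ribosomal protein genes among them. It was 0 with all 12 libraries, and with each library left out it ranged from 0 to 3, where the 2 genes passing without control 1 were Col1a1 and Col1a2, both lower. The animal numbers name different animals across the genotypes. Deviations of same-numbered libraries correlated at 0.0279, 0.0398 and -0.177, and not every library correlated best with its own number. With 3 libraries a group, these correlations cannot show whether same-numbered libraries share a batch. With a replicate block 0 genes passed, at edgeR adjusted p of 0.0686 for Timm10 and 0.0816 for Nme1. The cause of these differences was not tested.

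The difference in Myc level ranged from 6.09 to 6.75 CPM over its alternatives. The median of cytosolic ribosomal proteins ranged from 0.33 to 0.43, that of rRNA processing genes from 0.26 to 0.36, that of mitochondrial import genes from 0.17 to 0.27, that of fast fibre genes from -0.22 to -0.13 and that of matrix genes from -0.39 to -0.20. The medians of the heat shock, translation factor, slow fibre, proteasome, cell cycle, clock, transporter, p53, stress, atrophy, RNA binding, tricarboxylic acid cycle and fatty acid oxidation lists each moved by over 1.5 times or turned sign with a library left out, within -0.20 to 0.21. That of nucleotide and polyamine synthesis genes was unstable too, from 0.05 to 0.35. Near-zero changes turned sign when 1 library was left out: Max ranged from -0.18 to 0.52 and was below 0 without control 1, control 3, Myc 2 or Myc 3, Odc1 ranged from -0.25 to 0.76 and was below 0 without control 3 or Myc 3, and Myh7 ranged from -0.0205 to 0.20 and was below 0 without Myc 2 or Myc 3. At this depth genes under about 10 reads a library, such as Myc, Odc1 and most cytokine and cell cycle genes, could not be compared with any precision.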

Other observations

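Some genes outside the lists above, or in groups put together after their values were seen, showed values of the same kind. Several hosts of small nucleolar RNAs, whose introns hold the guides for rRNA modification, were higher in the Myc libraries. Gas5 had 66.3, 74.4 and 72.2 CPM in control and 89.9, 112 and 103 CPM in Myc libraries (log2 change 0.52 ± 0.14), and Zfas1 had 12.7, 8.12 and 11.7 against 19.6, 18.9 and 22.5 CPM (0.89 ± 0.26). Rack1, a ribosome scaffold that also hosts such RNAs, had 230, 240 and 228 against 316, 301 and 302 CPM (0.40 ± 0.11). None of the 12 hosts tested passed, 9 were above 0 and the median was 0.31. Groups did not overlap on the higher side for 3 of the 12, against 7.49% of all genes. Pycr1, an enzyme of proline synthesis, had 5.10, 2.03 and 5.56 against 14.6, 9.46 and 16.3 CPM (1.62 ± 0.39). Tfrc, the transferrin receptor for iron uptake, had 45.3, 34.5 and 40.8 against 67.7, 59.3 and 69.0 CPM (0.70 ± 0.16). Pstk, a kinase needed to make selenocysteine tRNA, had 7.01, 5.41 and 4.32 against 13.3, 15.1 and 15.5 CPM (1.38 ± 0.31). Pycr1 and Pstk had a mean above the count filter in the Myc libraries only. Pstk overlaps Ikzf5, which has more reads, and Zfas1 overlaps Znfx1, both on the opposite strand, so that their own levels are uncertain. Being chosen for their values, these genes have no test of their own.

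Genes of class II antigen presentation were lower together: all 5 tested were below 0 with a median of -0.60. Groups did not overlap on the lower side for 1 of the 5, against 5.71% of all genes. Cd74, the chaperone of class II molecules, had 63.7, 79.2 and 120 CPM in control and 43.7, 66.8 and 50.4 CPM in Myc libraries, where the groups overlapped (-0.71 ± 0.21). Control 3 held the highest sum of the 7 genes listed, 333 CPM, against 172 and 206 in the other controls and 120 to 177 in the Myc libraries.

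The medians of the remaining lists lay inside the middle 50% of all genes. They were 0.10 over 18 genes of the tricarboxylic acid cycle, 0.08 over 27 of fatty acid oxidation, 0.08 over 30 of RNA binding and splicing, 0.08 over 15 clock genes, 0.03 over 8 transporters, -0.08 over 22 of muscle atrophy and proteolysis, -0.03 over 7 p53 targets and -0.11 over 11 of ATF4 and endoplasmic reticulum stress. None of these lists had a gene that passed. In the last of them 8 of 11 genes were below 0, 2 (18.2%, against 5.71% of all genes) did not overlap on the lower side, and the sum was 880 to 936 CPM in control and 750 to 871 CPM in Myc libraries. Atf5, a transcription factor of the amino acid stress response that overlaps Nup62 on the opposite strand, was 1 of these 2 and is named after its value was seen (112, 92.0 and 82.7 against 69.0, 58.0 and 75.2 CPM, -0.51 ± 0.16).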
